A study of Mus musculus with 10 samples.

Results

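The BCL2 family and its regulators were followed through RNA-seq of the mouse lens epithelium as 9 genes chosen by symbol, not by their measured values: Bcl2, Bcl2l1, Mcl1, Bax, Bak1, Bcl2l11, Bbc3, Pmaip1 and Bmf. These are 9 of the 50763 genes in the count table. The epithelium of wild-type (WT) mice was compared with that of OVE853 and OVE918, 2 transgenic lines homozygous for a human TGF-β1 transgene whose product is secreted and constitutively active. The transgene is driven by the lens-specific murine αA-crystallin promoter, all mice were of the FVB/N strain and 3 weeks of age, and both lines develop anterior subcapsular cataract, a fibrotic plaque beneath the lens capsule. WT gave 3 libraries, OVE853 gave 3 and OVE918 gave 4, each from tissue pooled from up to 9 mice (WT and OVE853) or up to 7 mice (OVE918). The paper states that both sexes were equally represented among the mice, and the sexes within each pool are not given. The transgenic explants each held a plaque together with the epithelium around it, so the values belong to the whole explant and not to the plaque, and each line is a single transgenic family. The replicates are separate pools, and p-values measure the spread between these pools.

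BCL2 family proteins govern the mitochondrial route to apoptosis. The anti-apoptotic members (the products of Bcl2, Bcl2l1 and Mcl1) hold in check the pore-forming members BAX and BAK1, which otherwise open the outer mitochondrial membrane and release cytochrome c. BH3-only proteins, here BIM (Bcl2l11), PUMA (Bbc3), NOXA (Pmaip1) and BMF (Bmf), relay stress signals by placing a short helix, the BH3 domain, into a groove of the anti-apoptotic members, and in epithelial cells TGF-β is known to raise several of them. MCL1 is a short-lived protein, and BCL-XL, from Bcl2l1, and BCL2 are longer-lived. In the lens, epithelial cells keep their organelles while fiber cells lose theirs.

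The BH3 core is the element that the family shares, and its coding sequence is shown to place the genes side by side before their levels. In the canonical GENCODE vM39 transcripts, the core was searched in translated coding sequence as leucine, any 3 residues, glycine or alanine, and aspartate. Each of the following 8 genes held exactly 1 match, printed 5′ to 3′ with the 6 core codons in capitals, 5 codons before and 4 after:
Bcl2: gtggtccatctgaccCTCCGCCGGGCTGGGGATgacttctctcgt
Bcl2l1: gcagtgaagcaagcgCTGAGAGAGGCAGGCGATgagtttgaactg
Mcl1: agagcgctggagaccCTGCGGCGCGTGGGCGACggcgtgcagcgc
Bax: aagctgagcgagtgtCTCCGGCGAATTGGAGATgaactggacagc
Bak1: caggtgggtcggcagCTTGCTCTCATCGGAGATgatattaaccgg
Bcl2l11: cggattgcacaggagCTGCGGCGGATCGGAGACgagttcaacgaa
Bbc3: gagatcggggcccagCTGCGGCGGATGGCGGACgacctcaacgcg
Bmf: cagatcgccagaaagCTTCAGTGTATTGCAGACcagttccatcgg
All 8 lie in coding exons of the GRCm39 build. Those of the anti-apoptotic genes were at chr1:106640302-106640346 (minus strand, exon 1), chr2:152671614-152671658 (minus strand, exon 2) and chr3:95566732-95566776 (plus strand, exon 1). Those of Bax and Bak1 were at chr7:45115418-45115462 (minus strand, exon 3) and chr17:27241502-27241546 (minus strand, exon 4). Those of Bcl2l11, Bbc3 and Bmf were at chr2:127989055-127989099 (plus strand, exon 3), chr7:16047683-16047727 (plus strand, exon 3) and chr2:118375578-118375622 (minus strand, exon 4). The core ended in glycine and aspartate codons in Bcl2, Bcl2l1, Mcl1, Bax, Bak1 and Bcl2l11, and in alanine and aspartate codons in Bbc3 and Bmf. Pmaip1 also held the pattern and is not printed. The pattern is loose, since 24.0% of 21593 canonical coding transcripts held it, so a match describes the sequence and is not a test of function.

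The libraries held 24073311 to 31908525 counted read pairs. Tgfb1, on which transgene and endogenous reads are not told apart, was at 54.3 ± 6.41 CPM (TMM-scaled; SD, n = 3) in WT, 350 ± 11.3 (n = 3) in OVE853 and 775 ± 78.0 (n = 4) in OVE918, higher in both transgenic lines. The lens epithelium markers Pax6, Foxe3 and Cdh1 were present in every library. WT replicate 3 stood apart from the other WT libraries, with 8 retinal neuron markers summing to 488 CPM as against 44.9 and 53.3, and 6 endothelial markers summing to 115 as against 21.4 and 18.6. In the same libraries the 5 cornea markers summed to 1619 CPM in WT replicate 3 as against 237 and 938, with Kera at 0 in all 3. Across the OVE853 libraries the retinal neuron sum was 13.9 to 34.7 CPM, and in OVE918 it was 20.3 to 82.0. Non-pigmented ciliary epithelium markers summed to 162 to 244 CPM in WT, 45.1 to 62.0 in OVE853 and 18.0 to 31.0 in OVE918, and the cornea markers to 62.7 to 92.9 in OVE853 and 26.6 to 81.8 in OVE918, so both sums were higher in WT than in either line. That direction was partly fixed by the choice of markers. The paper lists Slc6a13, Best2 and Wfdc1 (ciliary) and Aldh3a1 (cornea) among its most reduced genes in both lines. Of the 5 cornea markers, 1 passed the minimum level for testing. Lens fiber markers summed to 32854 to 60088 CPM in WT, 23672 to 40695 in OVE853 and 37780 to 77082 in OVE918. Macrophage markers summed to 13.8 to 36.1 CPM in WT, 35.8 to 58.1 in OVE853 and 26.4 to 67.0 in OVE918. WT replicate 3 was the lowest WT library for 6 of the 8 tested members, as against 38.4% of all tested genes. OVE918 replicate 4 was the highest of all 10 libraries for Bax, Bak1, Bbc3 and Pmaip1. Those members have the shortest exon lengths, 976 to 2732 bp, as against 3491 to 7358 bp for the others. Among the OVE918 libraries, replicate 4 was lowest for Bcl2 and Bcl2l11, which have the longest. Over all tested genes, it was the highest OVE918 library for 36.6% and the lowest for 35.3%. Whether exon length or RNA quality had a part in this was not tested. The part of these differences in the results was not tested, and most members are also given without the library that stands apart for them.

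On a scale set by gene length (CPM per kb of exon), the WT epithelium held far more of Bax and Mcl1 than of any other member. Bax, at 41.4 ± 1.72 (SD, n = 3), lay above 90.6% of the genes tested, and Mcl1, at 39.2 ± 4.92, above 90.0%. The ranges of Bax and Mcl1 overlapped, so their order is not fixed by these libraries. Bcl2l1, at 15.6 ± 3.33 CPM per kb, came next, then Bak1 at 10.7 ± 1.65, and neither range overlapped its neighbour's, although the lowest Bcl2l1 library (12.9) and the highest Bak1 library (12.5) were close. Bcl2l11 (4.04 ± 1.04), Bmf (3.42 ± 2.13) and Bcl2 (2.89 ± 0.450) formed a lower tier, with Bmf overlapping both of its neighbours in the order. Bbc3 (2.21 ± 0.346) lay below Bcl2 in every WT library, and Pmaip1 (0.0277 ± 0.0111) lay below all. Bcl2, the gene that gives the family its name, thus stood lowest of the 3 anti-apoptotic genes in WT, above only 12.0% of the genes tested.

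**Figure D1:**
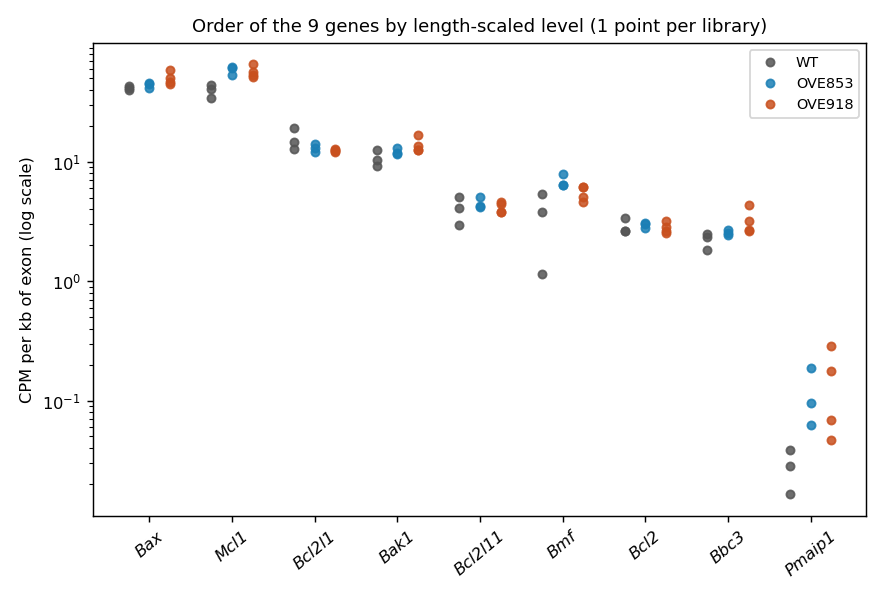
Length-scaled level of each of the 9 genes in CPM per kb of exon on a log axis, with 1 point per library (WT grey, OVE853 blue, OVE918 orange), ordered by the WT mean. Bax and Mcl1 lie at the top in all 3 groups, Pmaip1 lies below every other gene, and the WT points of Bmf spread from 1.15 to 5.36.

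The question of the comparison was which members differ between each transgenic line and WT, tested in edgeR by quasi-likelihood over 11094 genes, with the FDR by Benjamini-Hochberg (limit 0.05; a DEG also differed by 1 or more on the log2 scale, in either direction). Pmaip1 was below the minimum of 2 FPKM in all libraries, so 8 of the 9 members were tested there. Mcl1 rose in both lines, and it was the only one of the 8 to pass the FDR limit in this fit. In OVE853, 1 of 8 passed in the upward direction and 0 in the downward direction, where 8.10% and 7.68% of all genes did, and 15.8% in both directions together. In OVE918, the counts were again 1 of 8 upward and 0 downward, where 8.00% and 11.0% of all genes passed, and 19.0% in both directions together. None of the 8 was a DEG in either line, as 4.43% of all genes were in OVE853 and 5.59% in OVE918. An unadjusted p under 0.05 was reached by 2 of 8 members in OVE853 and 5 of 8 in OVE918, where 34.1% and 33.2% of all genes reached it, while DESeq2 and limma voom passed 2 and 2 members in OVE853 and 4 and 2 in OVE918. Both comparisons use the same WT libraries. In bulk tissue, fewer cells of a type and less RNA per cell cannot be told apart.

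**Figure D2:**
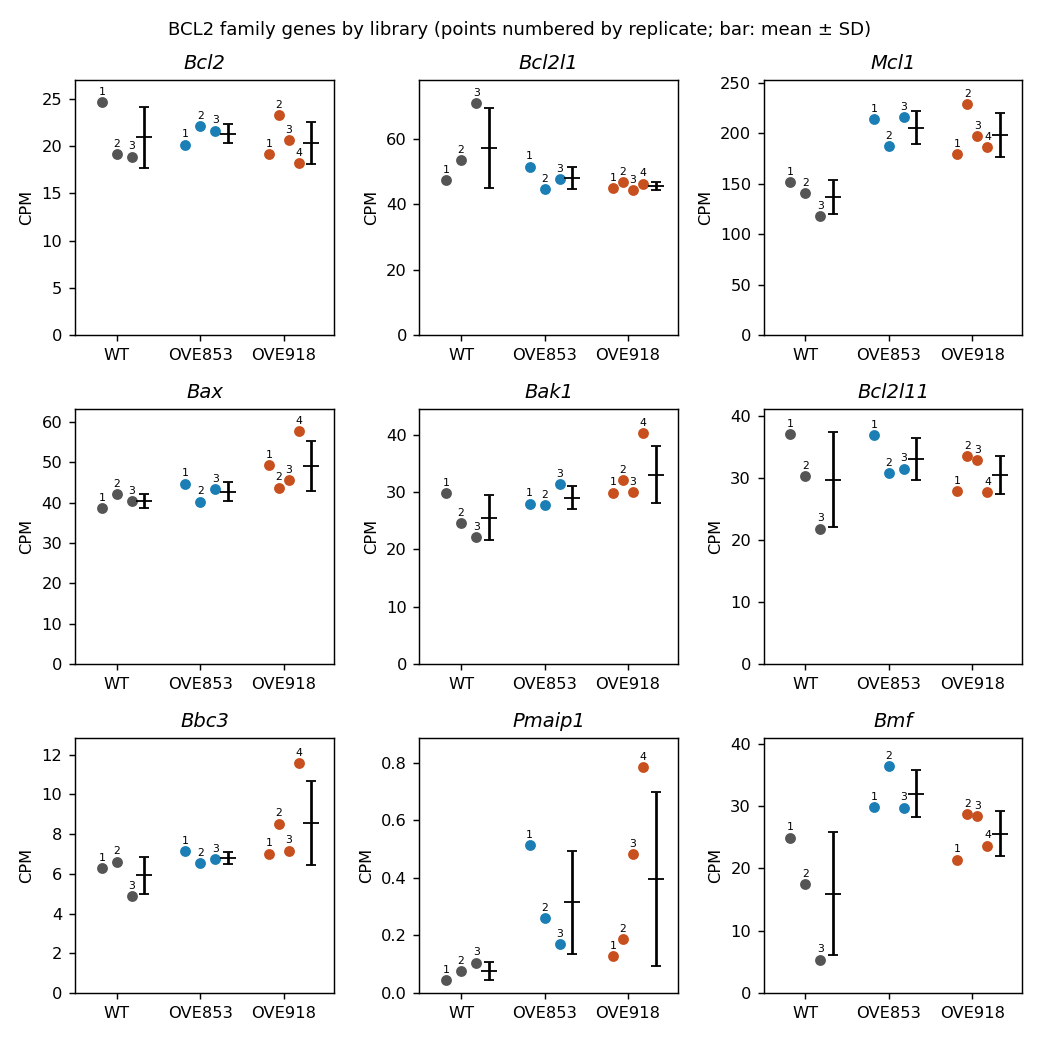
CPM of each of the 9 genes in every library, numbered by replicate within WT (grey), OVE853 (blue) and OVE918 (orange), each vertical axis starting at 0, with black bars for the mean ± SD. The Mcl1 points of both lines lie above every WT point, Bmf of WT replicate 3 lies far below the rest, and OVE918 replicate 4 is the highest point for Bax, Bak1, Bbc3 and Pmaip1.

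The ranges of 2 of 8 members did not overlap between OVE853 and WT (Mcl1 and Bmf), where 45.4% of all genes did not, and those of 5 of 8 did not overlap between OVE918 and WT (Bcl2l1, Mcl1, Bax, Bak1 and Bbc3), where 27.2% of all genes did not. The median log2 fold change of the 8 was 0.17 in OVE853 and 0.33 in OVE918, beside medians of -0.01 and 0.01 over all tested genes. Mcl1 and Bmf had the highest values in OVE853, and Bmf, Mcl1 and Bbc3 in OVE918.

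**Figure D3:**
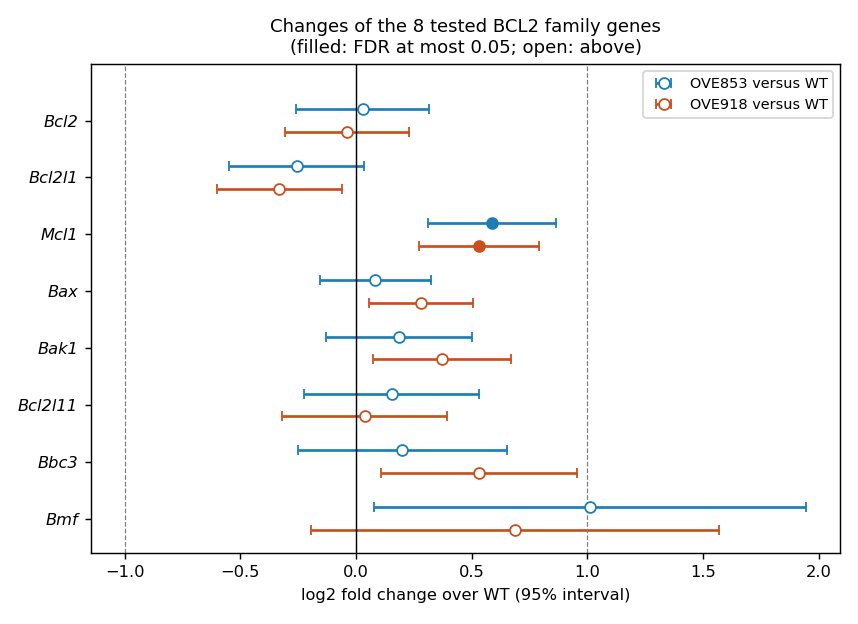
log2 fold change over WT of the 8 tested members in OVE853 (blue) and OVE918 (orange), with bars for the 95% interval, filled points at an FDR of at most 0.05 and open points above it, and dashed lines at 1 and -1. Mcl1 is the only filled gene, Bcl2 sits near 0 in both lines, and the Bmf intervals are the widest.

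Among the anti-apoptotic genes, Mcl1 (chromosome 3, 95566026 to 95570487 in GRCm39) showed the clearest difference. Its level was 152, 141 and 118 CPM in the WT libraries, 214, 187 and 216 in OVE853, and 179, 229, 197 and 186 in OVE918. No transgenic library reached down to the WT range. In OVE853 the mean was 206 ± 16.2 CPM against 137 ± 17.2 in WT, a log2 fold change of 0.59 (SE 0.13, 95% interval 0.31 to 0.86) with an FDR of 0.0114 in edgeR's quasi-likelihood test. In OVE918 the mean was 198 ± 21.8 CPM, a log2 fold change of 0.53 (SE 0.12, 95% interval 0.27 to 0.79) with an FDR of 0.00955 in the same test. Both values fell short of the fold change of a DEG. Leaving out WT replicate 3, which had the lowest Mcl1, gave an OVE853 value of 0.49 (edgeR FDR 0.0277) and an OVE918 value of 0.43 (FDR 0.0295). The OVE853 call was lost without OVE853 replicate 1 (0.55, edgeR FDR 0.0566) and without OVE853 replicate 3 (0.54, FDR 0.0577).

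Bcl2l1 (chromosome 2, 152622582 to 152673655), the gene of BCL-XL, had values on the other side of WT. It was at 47.3, 53.5 and 70.9 CPM in WT, 51.5, 44.7 and 47.6 in OVE853, and 44.9, 46.7, 44.3 and 46.3 in OVE918. All 4 OVE918 libraries lay just below the lowest WT library, and the OVE853 libraries overlapped WT. The log2 fold change was -0.26 in OVE853 (95% interval -0.55 to 0.03, edgeR FDR 0.195) and -0.33 in OVE918 (95% interval -0.60 to -0.06, FDR 0.0861). The high WT value came from WT replicate 3. Without that library the values were -0.07 (edgeR FDR 0.662) and -0.15 (FDR 0.325), and without WT replicate 1 they were -0.38 (FDR 0.0491) and -0.45 (FDR 0.0191).

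Bcl2 (chromosome 1, 106465908 to 106642060) lay at the same level in the 3 groups as far as these libraries resolve it. Its values were 24.7, 19.2 and 18.9 CPM in WT, 20.2, 22.2 and 21.7 in OVE853, and 19.1, 23.3, 20.6 and 18.2 in OVE918. All groups overlapped. The log2 fold change was 0.03 in OVE853 (95% interval -0.26 to 0.31, edgeR FDR 0.894) and -0.04 in OVE918 (95% interval -0.31 to 0.23, FDR 0.851), and its sign turned when single libraries were left out. Without WT replicate 3 the values were -0.04 and -0.11 (edgeR FDR 0.879 and 0.656).

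Summed per length over the 3 anti-apoptotic genes, the level was 57.7 ± 2.00 CPM per kb (SD, n = 3) in WT, 74.9 ± 5.30 (n = 3) in OVE853 and 71.9 ± 6.70 (n = 4) in OVE918. No transgenic library (lowest 66.2) overlapped WT (highest 59.7). Mcl1 made up 67.9 ± 6.33% of this sum in WT, 77.9 to 79.5% (mean 78.6%) in OVE853 and 78.8 ± 1.30% in OVE918. These sums are descriptions with no test.

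The pore-forming genes had higher values in OVE918. Bax (chromosome 7, 45111015 to 45116325) was at 38.7, 42.0 and 40.4 CPM in WT, 44.7, 40.3 and 43.3 in OVE853, and 49.3, 43.7, 45.7 and 57.7 in OVE918. Each OVE918 library lay above every WT library, and OVE918 replicate 4 lay well above the other 3. Within OVE918, Bax had the same order as the lens fiber marker sum, which was 73038, 37780, 56293 and 77082 CPM in replicates 1 to 4. Within WT and within OVE853 the orders of Bax and of that sum differed. The part of fiber cells or of exon length in the Bax values was not tested. Against WT, Bax had a log2 fold change of 0.08 in OVE853 (95% interval -0.16 to 0.32, edgeR FDR 0.613) and 0.28 in OVE918 (95% interval 0.06 to 0.51, FDR 0.0794). Without OVE918 replicate 4 the OVE918 value was 0.20 (edgeR FDR 0.106), and without OVE918 replicate 2 it was 0.34 (FDR 0.0494). A protein-coding gene annotated on the same strand, Gm45808, overlaps Bax, so reads in shared exons may have been lost or split.

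Bak1 (chromosome 17, 27238784 to 27247983) was at 29.8, 24.5 and 22.2 CPM in WT, 28.0, 27.7 and 31.4 in OVE853, and 29.9, 32.0, 29.9 and 40.3 in OVE918. The OVE918 libraries began just above the highest WT library, and replicate 4 was again highest. Bak1 had a log2 fold change of 0.19 in OVE853 (95% interval -0.13 to 0.50, edgeR FDR 0.373) and 0.37 in OVE918 (95% interval 0.08 to 0.67, FDR 0.0784). Without OVE918 replicate 4 it was 0.26 (edgeR FDR 0.135), without WT replicate 3 it was 0.28 (FDR 0.239), and without WT replicate 1 it was 0.50 (FDR 0.0280). Bax and Bak1 summed to 52.0 ± 1.36 CPM per kb in WT, 56.0 ± 2.66 in OVE853 and 64.1 ± 8.15 in OVE918. The ratio of the anti-apoptotic sum to this sum was 1.11 ± 0.0338 in WT and 1.34 ± 0.0321 in OVE853. In OVE918 it was 1.14 ± 0.213 and ran from 0.901 in replicate 4 to 1.40 in replicate 2, in the reverse order of the lens fiber marker sum. Within WT and within OVE853 the ratio did not hold that reverse order, and the part of fiber cells or of exon length in it was not tested. The OVE853 ratios thus all lay above those of WT, while the OVE918 ratios lay on both sides of them.

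**Figure D4:**
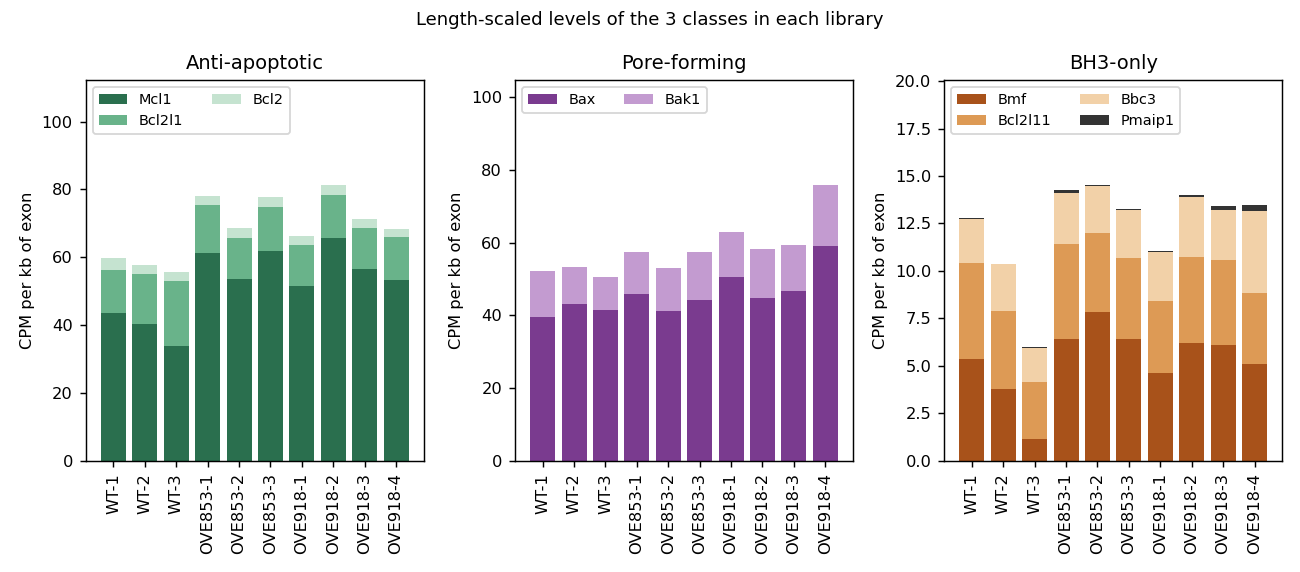
Stacked length-scaled levels (CPM per kb of exon, each axis starting at 0) of the anti-apoptotic, pore-forming and BH3-only genes, with 1 bar per library labelled by group and replicate. Mcl1 fills most of the anti-apoptotic bars, Bax most of the pore-forming bars, and the BH3-only bar of WT replicate 3 is the shortest at 5.97.

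Of the BH3-only genes that were tested, Bmf varied most within WT, with an SD of 62.2% of its mean. Bmf (chromosome 2, 118359238 to 118380177), whose product is linked to the cytoskeleton and to loss of cell attachment, was at 24.9, 17.5 and 5.33 CPM in WT, 29.8, 36.4 and 29.8 in OVE853, and 21.4, 28.8, 28.3 and 23.6 in OVE918. All OVE853 libraries lay above WT, the OVE918 libraries overlapped WT replicate 1, and WT replicate 3 lay far below the other 9. The log2 fold change was 1.01 in OVE853 (SE 0.42, 95% interval 0.08 to 1.95) with an edgeR FDR of 0.122, and 0.69 in OVE918 (SE 0.39, 95% interval -0.19 to 1.57) with an FDR of 0.258. The mean difference was 2.02-fold in OVE853 yet missed the FDR limit. Without WT replicate 3 the values were 0.59 (edgeR FDR 0.0622) and 0.27 (FDR 0.360), and without WT replicate 1 the OVE853 value was 1.49 (FDR 0.0294).

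Bcl2l11 (chromosome 2, 127967958 to 128004476), the gene of BIM, which binds all the anti-apoptotic members, was at 37.1, 30.4 and 21.8 CPM in WT, 36.9, 30.8 and 31.6 in OVE853, and 27.9, 33.5, 32.9 and 27.8 in OVE918. The groups overlapped throughout. A same-strand annotated gene, Gm74510, overlaps Bcl2l11. The log2 fold change was 0.15 in OVE853 (95% interval -0.22 to 0.53, edgeR FDR 0.545) and 0.04 in OVE918 (95% interval -0.32 to 0.39, FDR 0.897). Without WT replicate 3 both values turned to -0.03 and -0.14.

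Bbc3 (chromosome 7, 16042318 to 16052130), the gene of PUMA and a p53 target, was at 6.31, 6.62 and 4.87 CPM in WT, 7.13, 6.56 and 6.74 in OVE853, and 7.02, 8.53, 7.17 and 11.6 in OVE918. The OVE918 libraries all lay above WT, and replicate 4 was highest by a wide gap. Bbc3 had a log2 fold change of 0.20 in OVE853 (95% interval -0.25 to 0.65, edgeR FDR 0.506) and 0.53 in OVE918 (SE 0.19, 95% interval 0.11 to 0.96, FDR 0.0792). Its size in OVE918 matched that of Mcl1, but its error was larger. Without OVE918 replicate 4 the value was 0.36 (edgeR FDR 0.138), and without WT replicate 3 it was 0.40.

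Pmaip1, the gene of NOXA, which binds MCL1, was close to the floor of counting. It had 1, 2 and 3 counts in WT, 17, 7 and 5 in OVE853, and 3, 5, 13 and 17 in OVE918. The summed counts per scaled library size were 4.15 times WT in OVE853 (exact 95% Poisson interval 1.69 to 12.2) and 4.93 times WT in OVE918 (2.07 to 14.3), intervals that cover counting error only. In the edgeR fit over 18058 genes with a looser minimum, Pmaip1 had an FDR of 0.124 in OVE853 and 0.0699 in OVE918. Without OVE918 replicate 1 the OVE918 FDR was 0.0425 in edgeR. Without OVE918 replicate 4, where Pmaip1 was too low for that fit, the count ratio was 3.49 (1.36 to 10.6). With so few counts, whether OVE918 passed the limit depended on a single library.

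The 4 BH3-only genes among the members summed to 9.70 ± 3.45 CPM per kb in WT, 14.0 ± 0.678 in OVE853 and 13.0 ± 1.31 in OVE918. In WT replicate 3 the sum was 5.97, against 12.8 and 10.4 in the other WT libraries. Bmf made up 32.5 ± 11.8% of it in WT, 49.0 ± 4.49% in OVE853 and 42.2 ± 3.40% in OVE918. The WT share was 42.0, 36.2 and 19.2% in replicates 1 to 3, and each OVE853 share was above them. The family genes Bid and Bad are not in this sum. In WT they were at 7.33 to 11.4 and 6.51 to 8.09 CPM per kb, so the Bmf share is one among the members only.

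The question of whether the 2 lines differ from each other was asked of the same 8 members. None passed the FDR limit (0 of 8, with 1.32% of all genes passing) and none was a DEG (0.487% of all genes), with 0 members at an unadjusted p under 0.05 (22.9% of all genes), and 0 by DESeq2 or limma voom. Mcl1 differed by -0.06 (95% interval -0.31 to 0.20), Bax by 0.20 (-0.03 to 0.42), Bbc3 by 0.33 (-0.09 to 0.75) and Bmf by -0.32 (-1.18 to 0.53), each as log2 OVE918 over OVE853 in edgeR. The intervals leave room for differences as large as these bounds, and Tgfb1 itself was 1.15 higher in OVE918 (edgeR FDR 0.00388).

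Across the 10 libraries, the members moved together in part, given as Pearson r of log2 CPM with no test, since the libraries share groups and depth. The highest value was 0.903, between Bak1 and Bbc3, then 0.828 between Mcl1 and Bmf and 0.817 between Bax and Bbc3. Single libraries held extremes here too: OVE918 replicate 4 was highest for Bak1, Bax and Bbc3, and WT replicate 3 was lowest for Mcl1 and Bmf. The lowest was -0.909, between Bcl2l1 and Bmf, and WT replicate 3 holds the extreme of both genes. The tested genes outside the family whose log2 CPM most resembled that of Mcl1 over the 10 libraries were Ctps1 (r = 0.986), Arhgef19 (0.984) and Frmd4b (0.982). Their log2 fold changes over WT ran from 0.45 to 0.90, which the choice by likeness to Mcl1 over the same libraries largely fixes.

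Outside the 9 members, 81 genes in 8 lists of the apoptosis machinery were followed, of which 60 were tested. In OVE853, 9 passed the FDR limit (6 up, 3 down; 15.0% of those tested, beside the 15.8% of all genes), and in OVE918, 16 did (11 up, 5 down; 26.7%, beside the 19.0%). Over the 60, the median log2 fold change was 0.16 for OVE853 and 0.10 for OVE918. Leaving out WT replicate 3, 6 and 12 of 59 passed. Without OVE918 replicate 4 the counts were 16 and 12, and without OVE853 replicate 1, 2 or 3 they were 4, 4 and 5 in OVE853. The number of all genes past the limit moved as well when single libraries were left out. It ran from 719 to 2555 in OVE853 and from 1483 to 2440 in OVE918, so these shifts are not particular to the lists.

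Among 16 other BCL2 family genes, 7 were tested, and 2 rose in both lines. Of all tested genes, 8.10% rose past the FDR limit in OVE853 and 8.00% in OVE918. Bnip3, whose product acts in mitophagy, rose by 0.68 (edgeR FDR 0.0143) in OVE853 and by 1.05 (FDR 0.000605) in OVE918, where it was a DEG. It was at 45.0 to 63.6 CPM in WT, 80.4 to 97.9 in OVE853 and 102 to 139 in OVE918. Bid, a BH3-only gene whose product carries the death receptor signal to mitochondria, rose by 0.60 (FDR 0.0242) and 0.77 (FDR 0.00374). Both kept their calls without WT replicate 3. The Bcl2a1 paralogs, which are near-identical and share reads, were at under 1 CPM in every library.

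**Figure D5:**
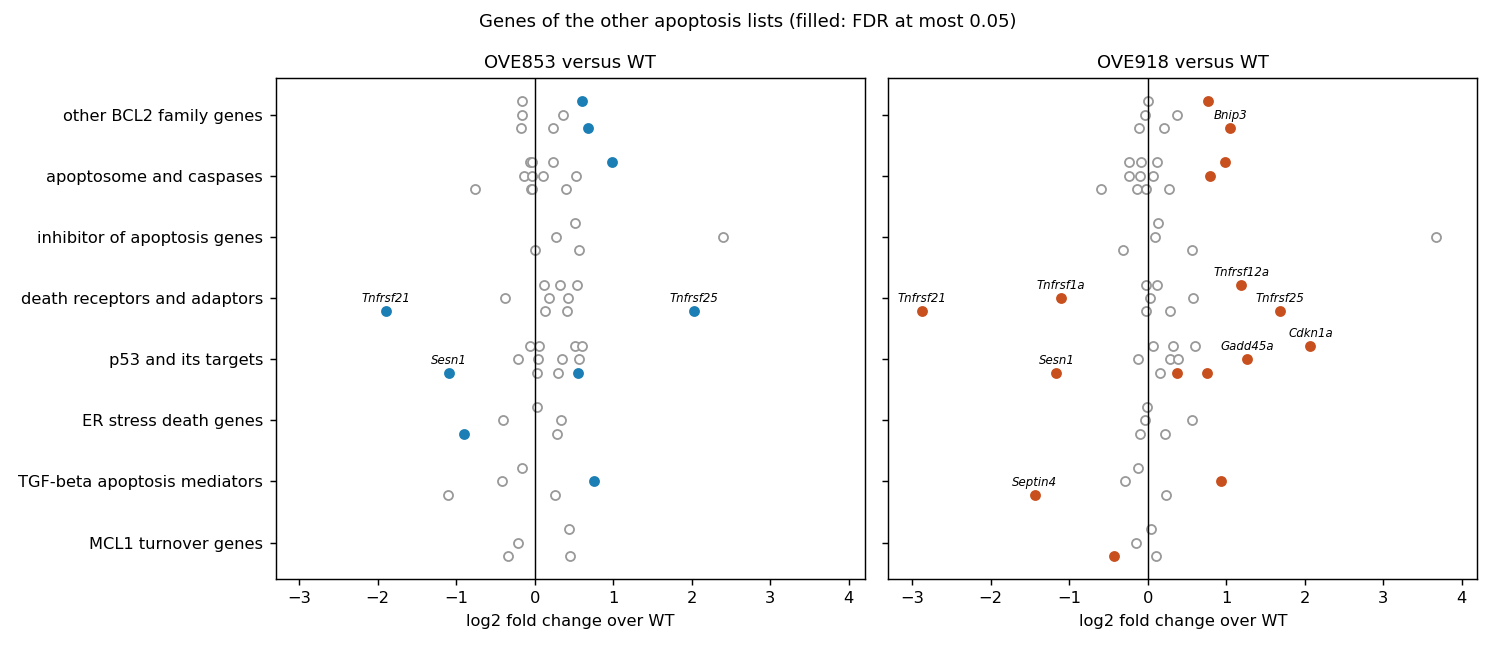
log2 fold change over WT of the 60 tested genes in 8 apoptosis lists in OVE853 (left) and OVE918 (right), with filled points at an FDR of at most 0.05 and open grey points above it, and DEGs named. Most points lie near 0, with the death receptor and p53 lists spread to both sides. Birc7 is the open point farthest to the right in both panels.

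Downstream of the mitochondrion, 12 genes of the apoptosome and caspase list were tested. Of these, 1 passed the FDR limit in OVE853 and 2 in OVE918, beside 15.8% and 19.0% of all genes. Dffb, a nuclease that cuts DNA, rose in both lines (0.99, edgeR FDR 0.0294, and 0.79, FDR 0.0475) and lost both calls without WT replicate 3. None of 5 tested inhibitor of apoptosis genes passed in edgeR, where 15.8% of all genes did in OVE853 and 19.0% in OVE918. An unadjusted p under 0.05 was reached by 1 (Birc2) in OVE853 and 1 (Birc7) in OVE918, beside 34.1% and 33.2% of all genes. Of the list of death receptors and adaptors, 10 genes were tested. In OVE853, 1 rose and 1 fell past the limit, and in OVE918, 2 rose and 2 fell, where 15.8% and 19.0% of all genes passed. In both lines, Tnfrsf25 rose (2.03, FDR 0.00110, and 1.68, FDR 0.00146) and Tnfrsf21 fell (-1.90, FDR 0.000231, and -2.87, FDR 6.10e-06). Tnfrsf21 also differed between the lines, by -0.97 (FDR 0.0480). In OVE918 alone past the limit were Tnfrsf12a (1.19, FDR 0.00164) and Tnfrsf1a (-1.11, FDR 0.00621), and neither difference between the lines passed (FDR 0.100 and 0.112).

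Of 12 tested genes of p53 and its targets, a list headed by the activator of Bbc3, 2 passed in OVE853 and 5 in OVE918. Over all tested genes, 15.8% passed in OVE853 and 19.0% in OVE918. Trp53 rose in both lines (0.55, edgeR FDR 0.00741, and 0.37, FDR 0.0268), and Sesn1 fell in both (-1.09, FDR 0.00147, and -1.16, FDR 0.000337). Cdkn1a, the gene of the cell cycle inhibitor p21, rose in OVE918 (2.07, FDR 0.00222) and was at 0.51 (FDR 0.346) in OVE853, with a difference between the lines of 1.57 (FDR 0.0554). In OVE918 it was at 10.9, 12.2, 18.7 and 26.1 CPM, highest in replicate 4. Gadd45a (1.27, FDR 0.0239) and Phlda3 (0.75, FDR 0.0374) also rose in OVE918 and were likewise highest in replicate 4, at 28.0 and 43.0 CPM. Without WT replicate 3, the OVE918 calls of Trp53 (0.28, FDR 0.0845) and Phlda3 (0.83, FDR 0.0530) were lost, the second with a larger fold change than before.

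The last 3 lists were small. Over all tested genes, 15.8% passed in OVE853 and 19.0% in OVE918, so 1 call in a list of 4 or 5 genes is near that share. Of 5 tested ER stress genes, Ddit3 fell in OVE853 (-0.90, edgeR FDR 0.0493), a call lost without WT replicate 3 (FDR 0.156). Of 5 tested TGF-β apoptosis mediators, Klf10, an early TGF-β response gene, rose in both lines (0.76, FDR 0.0313, and 0.93, FDR 0.00684), the first lost without WT replicate 3 (FDR 0.0943), and Septin4 fell in OVE918 (-1.44, FDR 0.0464), also lost without it (FDR 0.108). Septin4 was at 21.1, 40.2 and 100.2 CPM in WT. Of 4 tested genes that control MCL1 protein turnover, Btrc fell in OVE918 (-0.43, FDR 0.0331), lost without WT replicate 3 (FDR 0.0921). Huwe1, Usp9x and Fbxw7, the other 3, passed in neither line.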

How the data were processed

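RNA was extracted from pooled lens epithelial explants and sequenced as 150 bp paired reads. The authors used Cutadapt (5.2) for trimming and STAR (2.7.11b) for alignment to GRCm39, and deposited raw counts of read pairs per gene from featureCounts (2.0.8, reverse-stranded, RefSeq exons). From these counts, edgeR (4.0.16 in R 4.3.3) was fitted to all 10 libraries with 1 term per group, TMM scaling and the quasi-likelihood test, on genes with at least 2 FPKM in 5 of 10 libraries. Exon lengths came from GENCODE vM39, with 43252 of 50763 genes matched by symbol, 22 by RefSeq synonym and 7489 without a length, which were not tested. Pmaip1 was taken from a fit with edgeR's filterByExpr (18058 genes). Standard errors were the log2 fold change divided by the square root of F. Members and gene lists were chosen with earlier results of these data known. Named were all 9 members, up to 6 genes per list past the FDR limit, and the 3 genes most like a called member, except that some list genes are not reported here. Scripts were tested on simulated data. Within-group pairs of libraries differed by chi-square values of 20.0 to 213 per degree of freedom, so none was a duplicate. Replicate numbers did not pair libraries (9 correlations of deviations from -0.30 to 0.08). For the R numbers in the authors' library names, 8 correlations ran from -0.22 to 0.39. The lowest was between WT replicate 1 and OVE918 replicate 4, which carry no R number and were treated as sharing 1, also in the block. The highest, between OVE853 replicate 3 and OVE918 replicate 2, was the highest of all pairs between groups. Whether R numbers pair libraries is thus not settled here. Alternatives were upper-quartile scaling, other filters, DESeq2 (1.42.0), limma voom (3.58.1), the groups compared alone, blocks and leaving out each library; leaving libraries out of the list counts and of the Pmaip1 ratio was added after seeing the data.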

Additional observations from a re-analysis of the deposited data

How the results depend on the processing

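Over the 27 fold changes of members, 499 alternative values were computed. With a library left out, 249 kept direction and side of the FDR limit, 6 newly passed, 2 lost the call (Mcl1 in OVE853, above) and 7 changed sign. Under other settings, 223 kept both, 8 newly passed and 4 changed sign.

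Bcl2 in OVE918 was 0.00825 with the replicate block and 0.0386 by voom. Pmaip1 between the lines, a log2 fold change of 0.31 in the fit reported, was -0.29 with the replicate block and -0.0916 with a block on the R numbers in the authors' library names. Leaving out a library, Bcl2 ranged from -0.0412 to 0.161 in OVE853 and -0.111 to 0.0920 in OVE918, and Bcl2l11 from -0.0273 to 0.342 and -0.144 to 0.224.

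Of the members, 2 passed the FDR limit in OVE853 by DESeq2 (Mcl1 and Bmf, 1.00, FDR 0.0426, so that 1 was a DEG) and 2 by voom (FDR 0.00968 for Bmf). In OVE918, 4 passed by DESeq2 (Mcl1, Bax, Bak1 and Bbc3, FDR 0.0484, 0.0486 and 0.0381 for the last 3), 2 with the R number block and 2 by voom (Mcl1 and Bak1 in both). The replicate block changed no other member's call, and the replicate numbers pair nothing here. Leaving out a library, members past the limit ranged from 0 to 3 in OVE853, from 1 to 3 in OVE918 and from 0 to 0 between the lines, and DEGs among them from 0 to 1, 0 to 0 and 0 to 0.

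Over all genes, 491 DEGs in OVE853 became 1244 with filterByExpr and 1061 with no filter, and 620 in OVE918 became 1587 and 1548. The 54 between the lines became 107 by DESeq2, 124 by voom, 28 with the replicate block and 33 with the R number block. Genes past the FDR limit, 1751 in OVE853, became 1029 with the R number block and 4071 by voom, 2110 in OVE918 became 1236 with only the groups compared, and 146 between the lines became 90 with upper-quartile scaling, 956 by DESeq2, 324 with only the groups compared, 50 with either block, 2163 by voom and 68 with filterByExpr. Leaving out a library, DEGs ranged from 334 to 664, 522 to 728 and 6 to 93, genes past the limit from 719 to 2555, 1483 to 2440 and 7 to 523, and list genes past the limit from 4 to 16, 11 to 17 and 0 to 7, in OVE853, OVE918 and between the lines. The cause of these shifts was not tested.

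At 24073311 to 31908525 read pairs a library, the depth limited Pmaip1, with at most 17 counts, more than the other members, each of which had at least 139.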

Other observations

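Birc7, the gene of the caspase inhibitor livin, was singled out after its values were seen. It was at 5.10, 3.31 and 3.72 CPM in WT. In OVE853 it was at 2.17, 58.5 and 3.51 CPM, and in OVE918 at 96.7, 5.10, 40.7 and 64.0 CPM. Thus 4 of the 7 transgenic libraries lay at 40.7 CPM or higher, while the other 3 lay from 2.17 to 5.10 CPM. Of the 9 lens fiber markers, only Dnase2b and Bfsp1 are given singly here. They split the same 7 libraries, and whether each of the other markers does so is not given. Dnase2b was at 34.8 CPM in OVE853 replicate 2 and at 24.0, 22.1 and 29.4 in OVE918 replicates 1, 3 and 4, as against 0.987 to 2.91 in the other 3, and Bfsp1 was at 792 to 1389 as against 225 to 345. The sum of all 9 markers ran from 40695 to 77082 CPM in the former libraries and from 23672 to 37780 in the latter. In WT replicate 1, where Birc7 was at 5.10 CPM, that sum was 60088. In WT, Dnase2b was at 1.44 to 2.68 CPM and Bfsp1 at 529 to 623. The part of fiber cells in the Birc7 values was not tested. The log2 fold changes were 2.40 in OVE853 (95% interval -0.70 to 5.50, edgeR FDR 0.242) and 3.68 in OVE918 (95% interval 0.55 to 6.81, FDR 0.0995), so neither passed the limit, and the spread within each line was the widest of the tested inhibitor of apoptosis genes.

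Cycs, the gene of cytochrome c, and Casp9, the caspase that the apoptosome activates, had OVE918 ranges that did not overlap WT, on opposite sides. Cycs was at 43.5 ± 4.39 CPM (SD, n = 4) in OVE918 against 36.1 ± 1.30 (n = 3) in WT (log2 fold change 0.27, edgeR FDR 0.0665). Casp9 was at 33.7 ± 2.18 CPM in OVE918 against 39.9 ± 3.16 in WT (-0.24, edgeR FDR 0.0762). Neither passed the FDR limit.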
